A study of Mus musculus with 2 samples.

Results

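The genes described here are 36 genes of the ATF4 pathway and of the unfolded protein response (UPR), the programmes with which a cell meets a shortage of amino acids or a surplus of unfolded protein in the endoplasmic reticulum (ER). They were chosen by name from these pathways, with earlier results of these data known. Every probe of the array whose gene name was on the list was taken. All 36 genes had at least 1 probe, out of 37074 gene names on the array. They comprised 14 genes of the ATF4 arm, 18 genes of the chaperone arm and 4 sensors and transducers. The cells were mDE6, a cell line labelled as mouse odontogenic epithelium, and the study asked which genes respond when the β-catenin pathway is switched on in them. Cells received CHIR99021, which inhibits the kinase GSK-3 and so stabilises β-catenin, and RNA was taken at 6 h. There was 1 array of CHIR99021-treated cells and 1 array of control cells, so that the ratios below have neither a replicate check nor a p-value, and they describe a pair of samples of 1 cell line. The control label reads 0/1% DMSO, whereas the methods call the control untreated. The labels give CHIR99021 as 5 mM and the methods give 5 μM. The methods name a human array, whereas the file headers name mouse build mm9 and the probes carry mouse genes.

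Endoplasmic reticulum stress is sensed by PERK, IRE1 and ATF6. PERK phosphorylates the translation factor eIF2α, as do other kinases that sense lack of amino acids, haem or viral RNA, and this slows protein synthesis in general while the mRNA of Atf4 is translated more. ATF4 then binds composite C/EBP-ATF sites in genes for amino acid uptake, amino acid synthesis, and stress signalling. IRE1 splices the mRNA of Xbp1, and XBP1 and the cleaved form of ATF6 raise ER chaperones through ER stress response elements (ERSE) in their promoters. Because much of this control acts on translation, splicing and cleavage, an mRNA array sees only part of it. In secretory cells, such as those that make the tooth matrix, the chaperone genes are known for high expression.

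The signal of a spot is its fluorescence after background subtraction, in the arbitrary units of the scanner software. For a ratio of CHIR99021 over control, each array was divided by its own 75th percentile, 486.7 for control and 469.2 for CHIR99021. Of 59305 spots, 49.8% were well above background in control cells, 48.3% were so after CHIR99021, and 0 were saturated. A gene was tested if a probe was well above background on at least 1 array, which left 18837 genes, and was read at its probe with the highest mean signal. All 36 members passed this filter, and all were well above background on both arrays. They had 68 probes, of which 60 were well above background on both arrays and 8 on neither. A gene was called higher at a ratio of at least 1.5 with a Z-score of at least 2.0, or lower at a ratio of at most 0.66 with a Z-score of at most -2.0, where the Z-score sets the log2 ratio against the 500 probes nearest in mean signal. The error attached to a log2 ratio below is that of the scanner software's own error model for single spots, between 0.20 and 0.26 for the members. Among 282 probes printed repeatedly, the SD of the log2 ratio from spot to spot had a median of 0.031, and between different probes of the same gene the SD had a median of 0.11 over 5688 genes and of 0.073 over 19 members. These errors cover the array measurement and not the variation between cultures. The levels of different probes were not compared, since probes differ in brightness for equal amounts of RNA.

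As a check of the labels, Lef1, a direct target of β-catenin, had a signal of 239 in control and 690 in CHIR99021-treated cells, a ratio of 3.0. The defining genes of epithelium were only in part measured. Among the epithelial markers, Trp63 had a signal of 2306 in control cells, while Cdh1, Epcam, Krt8 and Shh were not well above background on either array. All of 7 mesenchymal genes were well above background on both arrays, Col1a2 at 270783 and Vim at 52302 in control cells. The leukocyte gene Ptprc had a signal of 1709 in control cells at the brightest of its 7 probes, and of the endothelial genes Pecam1 was well above background in control cells alone (29.9), while Cdh5 was so on neither array.

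After 6 h of CHIR99021, the ATF4 and UPR genes kept nearly the signal they had in control cells, with a single member called. Atf3 was 2.43-fold higher, and 0 members were called lower. In RNA from a whole culture, a change in the level per cell and a change in the share of cells with the RNA cannot be told apart. For comparison, 2.63% of all 18837 genes tested were called higher and 3.22% were called lower. By the ratio alone, without the Z-score, 2 members were higher, Atf3 and Dnajc3, and 0 were lower, beside 8.05% and 9.67% of all genes. Of the 36 ratios, 31 (86.1%) lay between 0.8 and its inverse, as did 62.0% of all genes and 77.1% of the brightest 25% of genes. Those outside were Atf3, Sesn2, Dnajc3, Hyou1 and Ern1, all on the higher side. The median log2 ratio was 0.12 over the members, 0.024 over all genes and 0.066 over the brightest 25%.

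**Figure D1:**
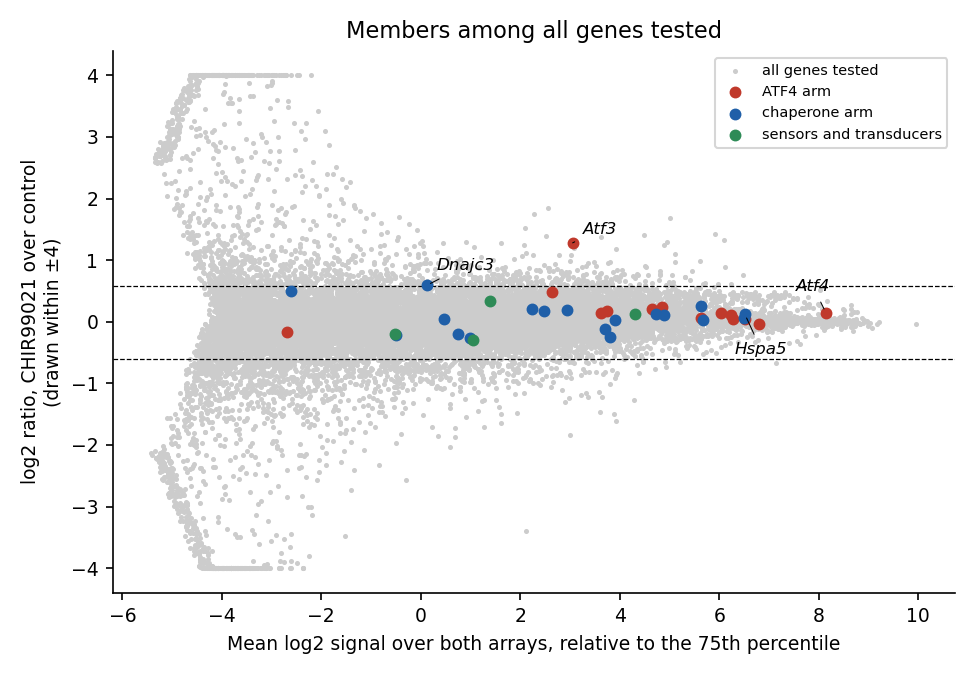
Each point is a gene at its highest-signal probe, with the mean log2 signal over both arrays, relative to the 75th percentile, on the horizontal axis and the log2 ratio of CHIR99021 over control on the vertical axis; grey points are all 18837 genes tested (values beyond 4 are drawn at the edge) and coloured points the 36 members. Dashed lines mark ratios of 1.5 and 0.66. Of the 36 members, 27 (75%) have a ratio above 1, as do 53.4% of all genes. Atf3, at a log2 ratio of 1.28, and Dnajc3, at 0.59, lie above the upper dashed line.

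In the ATF4 arm, 1 of 14 genes was called higher, 0 were called lower, and 12 had a ratio above 1. Of these 12, Trib3, Psat1, Phgdh and Slc3a2 were below 1 under other settings. The median log2 ratio was 0.14, with or without Atf3, and moved with the scaling, from 0.038 in the authors' normalized table to 0.21 with spike-in scaling. Atf4 itself, the transcription factor at the head of the arm (probe at chr15:80087902-80087961, plus strand, mm9), had a signal of 130634 in control and 139486 in CHIR99021-treated cells. The ratio was 1.11 (log2 0.15 ± 0.20), and a second probe, with 9573 and 10778, gave 1.17. At its highest-signal probe the log2 ratio was thus smaller than the error of the error model, but larger than the median SD between repeated spots (0.031). Under every setting run the ratio of Atf4 stayed between 1.06 and 1.16.

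Atf3 encodes a stress-inducible transcription factor of the same bZIP family and is a known target of ATF4 as well as an immediate early gene. The probe read 2589 in control and 6066 in treated cells (log2 1.28 ± 0.20), and its Z-score was 3.88. Among the 16886 genes well above background on both arrays, 0.586% had a higher ratio. The array carried 1 probe for Atf3, A_52_P452689, which lies at chr1:192994547-192994606 on the minus strand in mm9; the files name the gene and not the exon. No second probe was there to set beside it. The spot lies in the earlier rows of the array (rows 1 to 192 of 384), and the 4 adjacent spots well above background on both arrays had a median log2 ratio of 0.0012. Over the other scalings, filters and probe rules the log2 ratio ran from 1.20 to 1.35.

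The partners and targets of ATF4 that carry the stress signal further did not follow Atf3. Ddit3 encodes CHOP, the factor tied to cell death in lasting ER stress. Its signal was 6163 in control and 6695 in CHIR99021-treated cells, a ratio of 1.13, and a second probe gave 1.11. Trib3, a pseudokinase that restrains ATF4 signalling, had 37422 and 37072, a ratio of 1.03. Chac1, which degrades glutathione and is among the most ATF4-dependent genes known, had 35056 and 36490, a ratio of 1.08. These 3 genes had log2 ratios of 0.17, 0.039 and 0.11. All were smaller than the 0.20 of the error model and larger than the median SD between repeated spots (0.031).

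The other stress regulators lay somewhat higher. Ppp1r15a encodes GADD34, which brings the phosphatase to eIF2α and ends the response; its signal was 12900 in control and 14684 in CHIR99021-treated cells, a ratio of 1.18. Sesn2, a leucine sensor that inhibits mTORC1, had 2538 and 3436. Its ratio of 1.40 (log2 0.49 ± 0.20, Z-score 1.38) was the second highest of the arm and did not meet the criteria. The adjacent spots of Sesn2 had a median log2 ratio of 0.11. All 7 stress regulators had a ratio above 1, although that of Trib3 was below 1 under quantile and other scalings, and 53.4% of all genes and 64.5% of the brightest 25% had one.

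The genes of amino acid supply held their level. Asns, asparagine synthetase and the classic target of amino acid starvation, had a signal of 54917 in control and 51433 in CHIR99021-treated cells, a ratio of 0.97, whereas its second probe gave 1.07. Phgdh and Psat1 catalyse the first steps of serine synthesis. Phgdh had 43678 and 43268, a ratio of 1.03, and Psat1 had 23597 and 23718, a ratio of 1.04, with a log2 ratio of 0.14 at its second probe. Serine feeds the mitochondrial folate enzymes Shmt2 and Mthfd2, which had 11379 and 12668 (log2 ratio 0.21) and 5674 and 6030 (log2 ratio 0.14). A dim second Shmt2 probe, with 75.3 and 93.9, gave a ratio of 1.29, and a second Mthfd2 probe gave 1.09. Slc3a2 encodes the heavy chain of the large neutral amino acid transporter, with 30468 and 32589, a ratio of 1.11, and its other probes, at 1.13 and 0.99, lay on both sides of 1. Slc7a5, its light chain, was read by a single dim probe with 79.6 and 68.7, a ratio of 0.90 (log2 -0.16 ± 0.26). At their highest-signal probes the 7 genes of this group ranged from 0.90 to 1.15 with a median ratio of 1.04, and 0 of them were called.

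**Figure D2:**
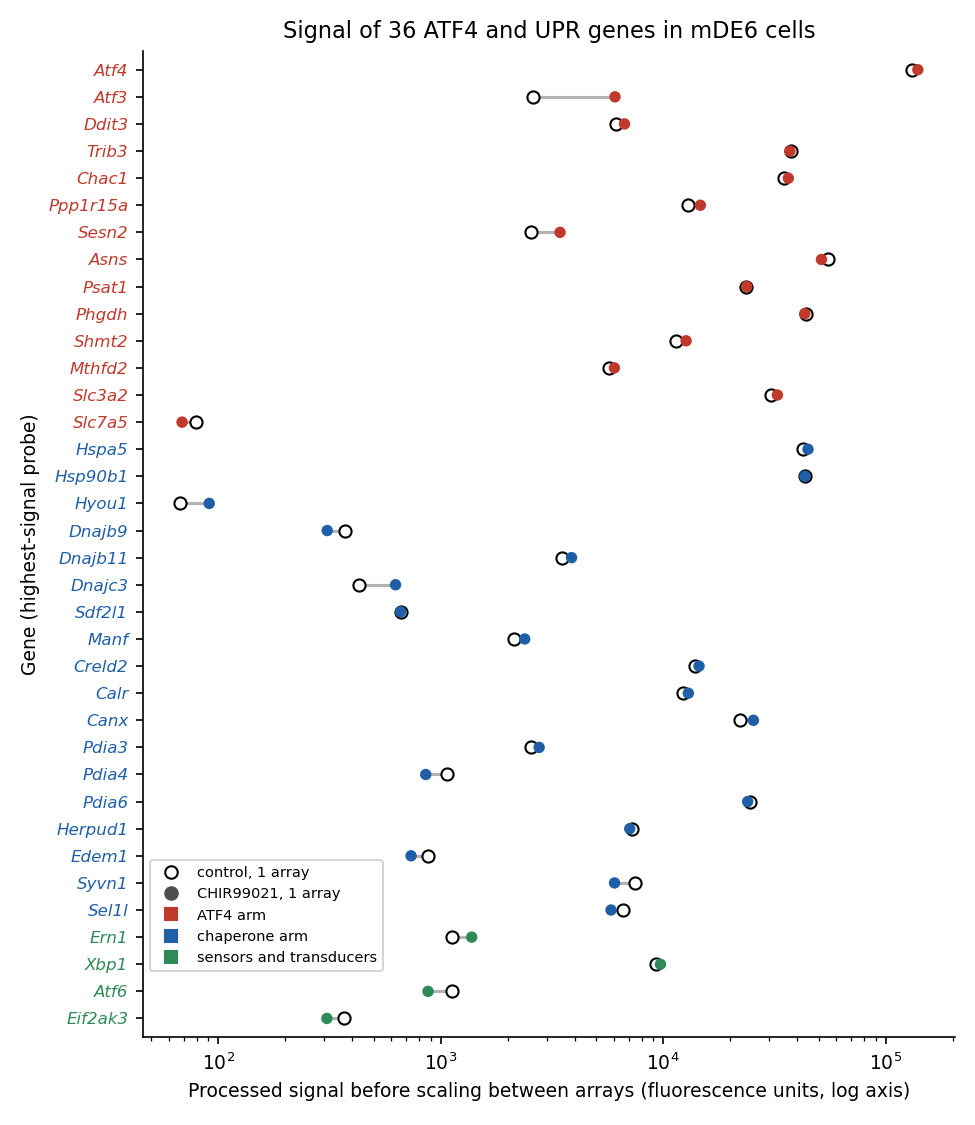
Processed signal of each member at its highest-signal probe, before scaling between the arrays, on a log axis in fluorescence units; open circles are the control array, filled circles the CHIR99021 array (1 array each), coloured by group, and grey lines join them. The control signals run from 67.1 for Hyou1 to 130634 for Atf4, the widest gap is that of Atf3, from 2589 to 6066, and smaller gaps are seen for Dnajc3, from 431 to 626, Hyou1, from 67.1 to 91.0, and Sesn2, from 2538 to 3436.

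Promoter sequences were looked up to see whether the members that share a motif also shared a ratio. RefSeq promoters (GRCm38.p6, 250 bases before to 50 after the transcription start) were given for 32 of the 36 members; Manf, Hyou1, Slc7a5 and Atf6 had none. The ATF4 composite element was searched as TGATGNAA on both strands, and 3.97% of all 32851 promoters held it. In the ATF4 arm 4 of 13 genes with a promoter did, namely Atf3, Chac1, Asns and Trib3; in Trib3 it begins at base 15 of the transcript. The stretches around the upstream matches are shown because the same element stands before genes with a ratio of 2.43 and of 0.97. They run 5′ to 3′ on the strand of the gene, with the match in capitals; in Atf3 and Chac1 the element is on the other strand.
Atf3 (chr1:191183424-191183455, minus strand): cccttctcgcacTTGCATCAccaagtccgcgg
Chac1 (chr2:119351037-119351068, plus strand): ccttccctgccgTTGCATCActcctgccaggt
Asns (chr6:7693213-7693244, minus strand): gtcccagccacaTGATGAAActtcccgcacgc

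The matches of Atf3 and Chac1 have the same letters and lie 110 and 193 bases before the start. Their ratios were 2.43 and 1.08. Within the ATF4 arm, the 4 genes with the element had ratios of 0.97 to 2.43 (median 1.05), and the 9 genes without it 1.03 to 1.40 (median 1.11). These ranges overlapped, and the difference of the medians has no test. Herpud1, of the chaperone arm, also held the element, 112 bases before the start, and had a ratio of 1.02. A cAMP response element, TGACGTCA, was found in Ppp1r15a alone, 12 bases before the start, and in 1.79% of all promoters. The XBP1 element TGACGTGG, which shares its first 6 letters with it, was found in 0 members and in 0.676% of all promoters. A match of letters does not show that a factor binds there.

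Most genes of the chaperone arm also had ratios near 1, with an SD of the log2 ratio of 0.23, beside 0.34 in the ATF4 arm and 0.15 in the ATF4 arm without Atf3. Of its 18 genes, 0 were called higher and 0 lower by ratio and Z-score, 13 had a ratio above 1, and the median ratio was 1.06 (log2 0.084, from 0.013 in the authors' normalized table to 0.15 with spike-in scaling). Of these 13, Hsp90b1, Hyou1, Sdf2l1, Pdia6 and Herpud1 were below 1 under other settings. Hspa5, which encodes BiP, the HSP70 of the ER lumen and the most used readout of the UPR (probe at chr2:34631913-34631972, plus strand, mm9), had a signal of 42617 in control and 44737 in CHIR99021-treated cells. The ratio was 1.09 (log2 0.12 ± 0.20), and its other probes gave 1.06 and 1.18. Hsp90b1, the HSP90 of the ER, had 43203 and 43311, a ratio of 1.04.

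Cochaperones and partners of BiP were mixed. Hyou1, an exchange factor for BiP, was dim at every probe. Its highest-signal probe had 67.1 and 91.0, a ratio of 1.41 (log2 0.49 ± 0.24), and another had 65.8 and 45.3, a ratio of 0.71, so that its probes disagreed in direction; the remaining one, with 36.2 and 38.3, had a log2 ratio of 0.14. Dnajb9 hands misfolded protein to degradation and represses IRE1, and it had 371 and 309, a ratio of 0.86. Dnajb11, a J-protein that delivers clients to BiP, had 3504 and 3870, a ratio of 1.15, with 1.09 at its other measured probe.

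Dnajc3, known as p58IPK, inhibits PERK and assists BiP; its probe lies at chr14:119380429-119380488, plus strand, mm9. Its signal was 431 in control and 626 in CHIR99021-treated cells, a ratio of 1.51 (log2 0.59 ± 0.21). The Z-score was 1.72, and the ratio criterion was passed by little. The array carried 1 Dnajc3 probe, in the later rows, and 4 adjacent spots well above background on both arrays had a median log2 ratio of 1.5. A median above 0.5 was found beside 1 other member, Hyou1 (1.1, from 2 spots), and a median below -0.5 beside 0 members. The part of the surrounding spots in the values of Dnajc3 and Hyou1 was not tested.

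The secreted and soluble UPR factors Sdf2l1, Manf and Creld2 had ratios of 1.03 (664 and 660), 1.16 (2131 and 2383) and 1.08 (13899 and 14481), and a second Manf probe gave 1.22. Calr and Canx, the lectin chaperones that fold glycoproteins, had 12298 and 12964, a ratio of 1.09, and 22042 and 25428, a ratio of 1.20. The second Canx probe gave a log2 ratio of 0.32. Among the disulfide isomerases, Pdia3 had 2552 and 2768, a ratio of 1.13, with 1.21 at its second probe, Pdia6 had 24457 and 23955, a ratio of 1.02, and Pdia4 had 1061 and 856, a ratio of 0.84. None of these differed by more than 2 errors of the error model.

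The 4 genes of ER-associated degradation had a median ratio of 0.90, the lowest among the groups of the chaperone arm, and 1 of them, Herpud1, had a ratio above 1, though not under every scaling. Herpud1, a membrane organiser of the degradation complex, had 7217 and 7069, a ratio of 1.02, and a second probe gave 1.05. Edem1, which picks misfolded glycoproteins, had 872 and 735, a ratio of 0.87, whereas its second probe gave 1.14. Syvn1 encodes the ubiquitin ligase HRD1, with 7437 and 6041, a ratio of 0.84 (log2 -0.25 ± 0.20). Sel1l, its partner, had 6562 and 5824, a ratio of 0.92, and a second probe at 1.11. In Edem1 and Sel1l the probes lay on both sides of 1, and 0 of the 4 genes met the criteria.

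**Figure D3:**
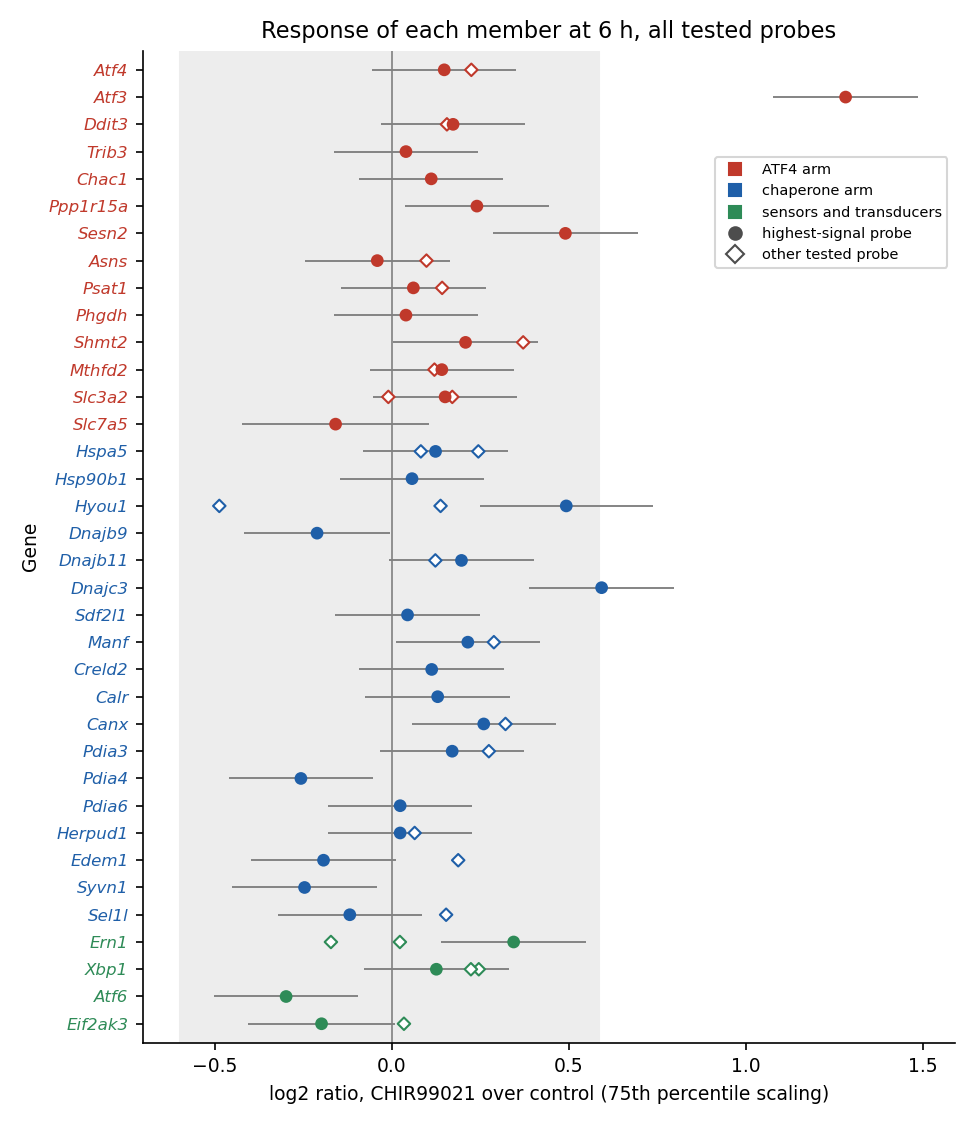
The log2 ratio of CHIR99021 over control for every tested probe of each member; filled circles are the highest-signal probe with the error of the scanner's error model as a bar, open diamonds the other tested probes, and the grey band the range between ratios of 0.66 and 1.5. Atf3 lies outside the band at 1.28, Dnajc3 at its edge at 0.59, and the 3 Hyou1 probes spread from -0.49 to 0.49.

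The ER stress response element was searched as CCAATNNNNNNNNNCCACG, CCAAT and CCACG with 9 bases between, on both strands. In the chaperone arm 8 of 16 genes with a promoter held it, 0 of 13 did in the ATF4 arm and 0 of 3 among the sensors, and 0.119% of all promoters did. The 8 promoters are shown because they carry the same element and include both the highest and nearly the lowest ratio of the arm. Capitals mark the element, 5′ to 3′ on the strand of the gene, and CGTGG with ATTGG is the element read on the other strand.
Hspa5 (chr2:34772013-34772055, plus strand): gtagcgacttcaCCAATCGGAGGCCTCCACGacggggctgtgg
Dnajc3 (chr14:118937815-118937857, plus strand): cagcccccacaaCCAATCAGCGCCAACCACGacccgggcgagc
Creld2 (chr15:88819508-88819550, plus strand): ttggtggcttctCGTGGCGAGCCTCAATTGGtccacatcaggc
Calr (chr8:84847063-84847105, minus strand): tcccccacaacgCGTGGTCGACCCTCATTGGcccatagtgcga
Canx (chr11:50325788-50325830, minus strand): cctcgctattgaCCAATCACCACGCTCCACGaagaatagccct
Pdia6 (chr12:17266479-17266521, plus strand): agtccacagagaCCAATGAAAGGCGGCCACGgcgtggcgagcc
Syvn1 (chr19:6046520-6046562, plus strand): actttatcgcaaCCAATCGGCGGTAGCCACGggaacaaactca
Hsp90b1 (chr10:86705521-86705668, minus strand): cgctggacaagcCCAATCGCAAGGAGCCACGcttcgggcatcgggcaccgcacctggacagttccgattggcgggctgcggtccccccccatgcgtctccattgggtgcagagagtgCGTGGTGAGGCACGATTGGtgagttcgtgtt

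The element lay between 44 bases (Syvn1) and 212 bases (the first of the pair in Hsp90b1) before the start. The ratios of these 8 genes ran from 0.84 in Syvn1 to 1.51 in Dnajc3 with a median of 1.08, and 7 of them were above 1. The 8 chaperone arm genes whose promoter lacked it ran from 0.84 to 1.15 with a median of 0.97, and 4 were above 1. The members with and without the element thus overlapped, and with 1 array per condition the difference of the medians has no test. ERSE-II, ATTGGNCCACG, was found in Herpud1, 52 bases before the start, and in Dnajb11, from base 8 of the transcript, and in 0.0365% of all promoters.

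**Figure D4:**
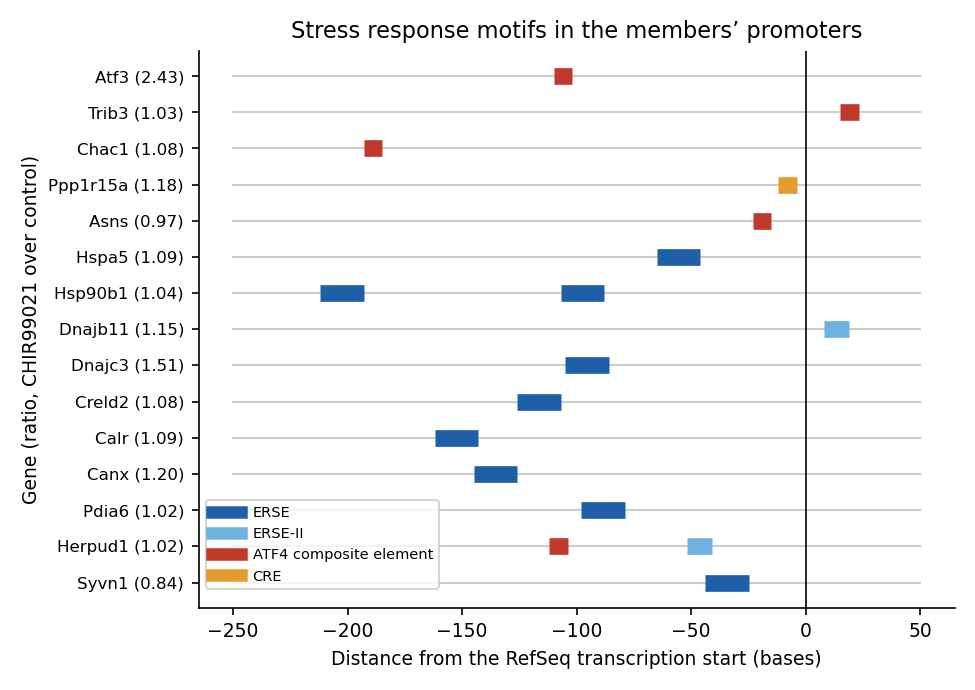
Motifs in the promoters of the 15 members that hold one, drawn to scale by distance from the RefSeq transcription start (vertical line), with the ratio of CHIR99021 over control in parentheses. ERSE stands in 8 chaperone arm genes whose ratios run from 0.84 to 1.51, and the ATF4 composite element in 4 ATF4 arm genes and Herpud1.

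The sensors and transducers comprised Ern1, Xbp1, Atf6 and Eif2ak3, with 0 called and a median ratio of 0.97, which spike-in scaling turned above 1 (log2 0.029). Ern1 encodes IRE1, and had 1126 in control and 1377 in CHIR99021-treated cells, a ratio of 1.27 (log2 0.34 ± 0.20), while its other measured probes gave 1.02 and 0.89. Xbp1, its target, had 9239 and 9714, a ratio of 1.09, with 1.19 and 1.17 at the other probes. Atf6 had 1119 and 876, a ratio of 0.81 (log2 -0.30 ± 0.20). Eif2ak3, which encodes PERK, had 366 and 308, a ratio of 0.87, and a dim second probe gave 1.02. The 3 Ern1 probes did not point the same way.

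Wider lists of the same responses, also chosen with earlier results of these data known, were set beside the members. Of 47 other genes known as targets of ATF4, 47 were tested, with a median log2 ratio of 0.15 and 35 above 0. Among them, 4 (8.51%) were called higher and 2 (4.26%) lower, beside 2.63% and 3.22% of all genes, with no test of the difference. Of the 47 genes, 29 were read in the later rows of the array. There 3.77% of all genes were called higher and 4.07% lower, beside 1.38% and 2.28% in the earlier rows. Ddit4, an inhibitor of mTORC1, was 2.45-fold higher (9668 and 22786), Slc7a11, the cystine transporter, 1.90-fold (594 and 1085), Vegfa, the angiogenic growth factor, 1.73-fold (4574 and 7642) and Mthfd1l, a mitochondrial folate enzyme, 1.61-fold (1337 and 2079). A second Slc7a11 probe gave 1.99, and 2 of the other 3 Vegfa probes gave 1.79 and 1.60, whereas a dim one gave 0.88. Those lower were Klhl24 at a ratio of 0.15 (471 and 68.4), whose second probe was not well above background in treated cells, and Bbc3, a mediator of apoptosis, at 0.56 (741 and 400). At their highest-signal probes, Ddit4, Slc7a11, Mthfd1l and Bbc3 lay in the later rows, and Vegfa and Klhl24 in the earlier rows. The part of the row was not tested. Ddit4 and Vegfa are also known as genes that respond to hypoxia.

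Of 73 further names for ER folding, degradation and translocation, 69 were tested, with a median log2 ratio of 0.082. There were 2 (2.90%) called higher and 0 called lower, beside 2.63% and 3.22% of all genes. Ero1l, the oxidase that reoxidises disulfide isomerases and a hypoxia-responsive gene, was 2.67-fold higher, from 6718 to 17261, and P4hb, a disulfide isomerase and subunit of prolyl hydroxylase, 1.57-fold, from 13084 to 19821. The second, dim P4hb probe gave 1.33. The adjacent spots had median log2 ratios of 0.45 for Ddit4, 0.42 for Ero1l and 0.43 for P4hb, each below the gene's own, and their part was not tested. None of 15 eIF2 kinases and eIF2 subunits or regulators was called, with ratios from 0.79 to 1.36. Among 24 of 25 cytosolic heat shock genes that were tested, 0 were called higher and 1 (4.17%) lower, beside the same shares of all genes. The lower gene was Hspa1b at 0.58 (755 and 418). The median log2 ratio over the list was 0.19.

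**Figure D5:**
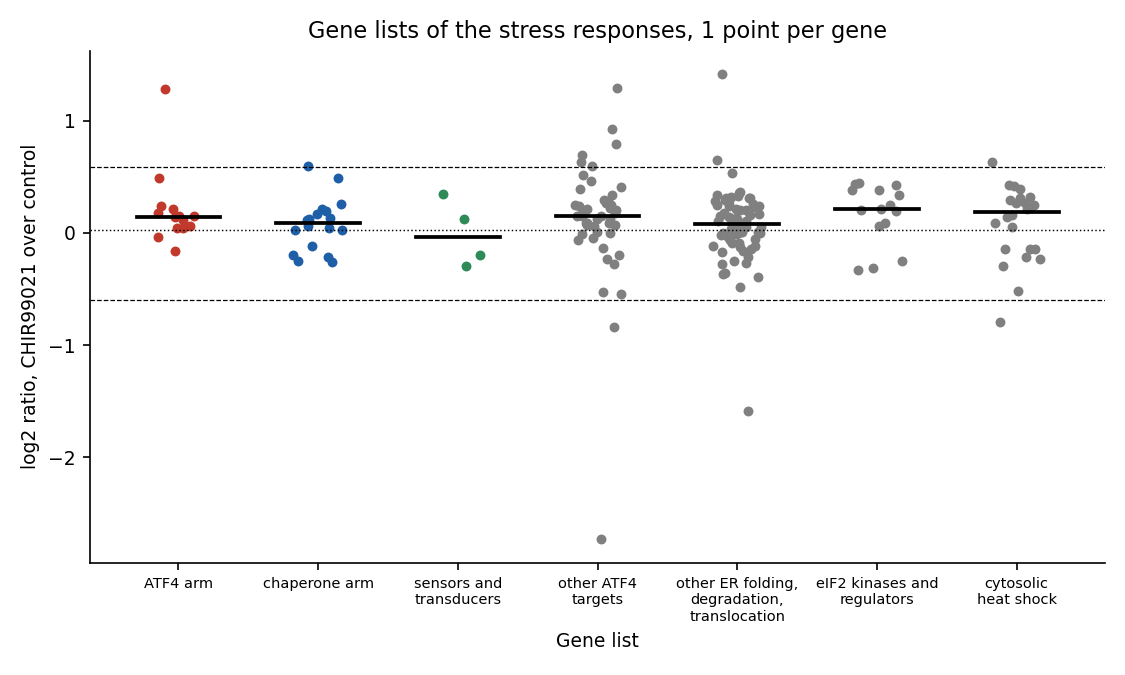
The log2 ratio of CHIR99021 over control in the 3 groups of members (coloured) and 4 further gene lists (grey), 1 point per gene at its highest-signal probe; thick bars are list medians, the dotted line the median of all genes tested (0.024) and dashed lines ratios of 1.5 and 0.66. List medians run from -0.037 for the sensors (0.029 with spike-in scaling) to 0.21 for the eIF2 genes; 1 grey point, Crebrf, lacked a signal well above background in treated cells and is drawn at its computed ratio.

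The members were also set apart by where on the array their highest-signal probe lay. In the earlier rows, 22 members had a median log2 ratio of 0.12 with an SD of 0.30, and in the later rows 14 members had 0.13 with an SD of 0.28. A ratio above 1 was found for 18 of the 22 (81.8%) and 9 of the 14 (64.3%). The 9 chaperone arm genes in the earlier rows had a median of 0.12 with an SD of 0.14, and 8 were above 0, whereas the 9 in the later rows had 0.023 with an SD of 0.31, and 5 were above 0. The ATF4 arm had 0.11 over 9 genes in the earlier rows and 0.17 over 5 in the later. Hyou1, read from its highest-signal probe in the earlier rows, turned from 0.49 to -0.49. The part of the row in these values was not tested. Over all genes the SD was 0.49 in the earlier and 1.24 in the later rows. None of the highest-signal spots of the members exceeded the limit for uneven pixels, and 0 of the members' spots were marked as outliers. Of the 36 members, 25 kept the sign of their log2 ratio under every setting that gave a value, 18 above 0 and 7 below, and 11 did not. The 7 with a ratio below 1 throughout were Slc7a5, Dnajb9, Pdia4, Edem1, Syvn1, Atf6 and Eif2ak3.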

How the data were processed

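Per the labels, the samples are 1 array of control and 1 array of CHIR99021-treated mDE6 cells, and the files hold a single colour channel. Spot intensities as deposited by the authors were background-subtracted and detrended but not normalized between arrays, and came from Feature Extraction (10.7.1.1 in the file headers, 9.5.1.1 in the submitters' processing notes). Other columns deposited hold each spot's error and pixel SD. They also deposited intensities normalized between the arrays, whose sorted columns are equal, as after quantile normalization (medians 20.4 and 20.4; method not given in the sources used here).

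From these, log2 intensities relative to each array's 75th percentile were computed over all spots in Python (3.11.15; pandas 2.3.3, numpy 2.4.6), leaving out control and outlier spots and averaging spots of a probe. Normexp (offset 50), quantile and cyclic loess alternatives used limma 3.58.1 in R 4.3.3, and figures matplotlib 3.10.9. Under 50% of spots were well above background, so a percentile over detected probes was tried too. The number of arrays, 1 per condition, limits the precision, and no test was run.

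The text names all 36 members with their other tested probes, from each further list the genes called by ratio and Z-score and well above background on both arrays (at most the 5 highest and 5 lowest), Lef1 among the label checks, and cell type markers, of which 1 is not reported here. Crebrf is named as drawn, chosen after its values were seen. Members and lists were chosen with earlier results of these data known. Members' symbols all matched RefSeq GRCm38.p6 (36 of 36); probe coordinates are the files', in mm9, promoters GRCm38.p6.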

Additional observations from a re-analysis of the deposited data

How the results depend on the processing

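Under all 15 alternatives Atf3 was called higher and 0 members were called lower. The count of members called higher was 2, with Dnajc3 added, by the ratio alone and with the Z-score from the median and MAD, and 1 under the other alternatives. The median log2 ratios of the ATF4 arm (0.14), the chaperone arm (0.084) and the sensors (-0.037), in that order, moved beyond the SD between spots (0.031) in these cases. They were 0.093, 0.033 and -0.088 with the percentile over detected probes, 0.18, 0.12 and -0.0055 with median scaling, 0.044, 0.021 and -0.082 with quantile normalization, 0.087, 0.031 and -0.073 with cyclic loess, 0.091, 0.031 and -0.090 with no scaling, 0.21, 0.15 and 0.029 with spike-in scaling, and 0.038, 0.013 and -0.085 in the authors' normalized table. The mean over a gene's probes gave 0.052 for the chaperone arm, and the earlier rows alone gave 0.11 for the ATF4 arm, over 11 genes. With spike-in scaling the median of the sensors changed sign. The scalings moved the median of all genes by -0.053 to 0.066; with no filter on dim probes it moved by 0.16, with the members' values unmoved, since more dim genes enter. With normexp, the stricter filter, no filter and uneven spots left out, the arms moved by less than this SD. Low signal over background limits Hyou1 and Slc7a5. No paired analysis was possible because there is a single array of each kind.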
